A study of Mus musculus with 12 samples.

Results

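The genes described here are 30 genes of cholesterol and fatty acid synthesis and of cholesterol uptake and efflux. They were taken by name from a fixed list of symbols, out of 31027 genes with a count in at least 1 library. All 30 were among the 18095 genes that passed the filter on low counts and were tested. They comprise 18 enzymes of cholesterol synthesis (7 of the mevalonate arm and 11 of the sterol arm), 4 genes that are regulators or a sterol carrier, 5 genes of fatty acid synthesis, and 3 genes of sterol efflux and uptake control.

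The RNA came from cDC1, the type 1 conventional dendritic cells that present engulfed material to CD8 T cells, of the inguinal lymph node of mice. The 12 libraries form 4 groups of 3. NoTumor-NoCD40 mice had neither a tumor nor the agonist, NoTumor-CD40 mice received a CD40 agonist alone, Tumor-NoCD40 mice carried a tumor alone, and Tumor-CD40 mice had both. The series title names the tumor as subcutaneous (SubQ) KPC, KPC being the usual name of a mouse model of pancreatic cancer. CD40 is a surface receptor by which helper T cells license dendritic cells. The strain, age and sex of the mice, the agonist's identity, dose and timing, and the sort gate were not given in the sources used here. The labels do not say that the libraries of a group came from separate animals, and p-values here can speak only for the spread among the samples at hand, which may be technical.

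Cells build cholesterol from acetyl-CoA, first through mevalonate to isoprenoid units and then, after squalene is formed, through a series of sterol intermediates. When sterol in the endoplasmic reticulum runs low, the transcription factor SREBP2, encoded by Srebf2, is cut loose from its membrane anchor and raises the enzymes of the pathway; INSIG proteins hold it back when sterol is plentiful. SREBP1, encoded by Srebf1, acts mainly on fatty acid synthesis, while oxysterols act through LXR to raise the efflux pumps Abca1 and Abcg1 and the uptake inhibitor Mylip. Dendritic cells use these lipids for membrane, for secretion and for the shift in metabolism that accompanies activation.

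Promoter sequences of Hmgcs1 and Idi1 are shown because these mevalonate genes are described in every comparison and because the Hmgcs1 promoter holds the letters of a sterol regulatory element, the site that SREBP proteins bind. Hmgcs1 encodes the synthase that makes HMG-CoA, and Idi1 the isomerase that makes the activated isoprenoid unit used for chain building. Each sequence is RefSeq's for GRCm38.p6 and covers the 250 bases before the transcription start on the plus strand, at chr13:119690101-119690350 for Hmgcs1 and chr13:8885356-8885605 for Idi1. Capitals mark the letters TCACNCCAC of the sterol regulatory element core and CCAAT boxes, which stand here on the other strand and so read ATTGG.
Hmgcs1: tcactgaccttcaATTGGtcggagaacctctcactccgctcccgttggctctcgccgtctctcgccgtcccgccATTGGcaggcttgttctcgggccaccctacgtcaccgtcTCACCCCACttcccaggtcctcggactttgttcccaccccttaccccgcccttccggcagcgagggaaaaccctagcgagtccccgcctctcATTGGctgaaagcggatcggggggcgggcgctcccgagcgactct
Idi1: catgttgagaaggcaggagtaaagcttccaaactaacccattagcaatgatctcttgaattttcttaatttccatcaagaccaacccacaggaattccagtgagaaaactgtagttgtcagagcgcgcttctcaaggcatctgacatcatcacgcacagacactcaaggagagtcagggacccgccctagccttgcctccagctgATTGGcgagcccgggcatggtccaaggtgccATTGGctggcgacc
The element in Hmgcs1 begins at -137 from the start, with CCAAT boxes at -237, -176 and -45, and those of Idi1 lie at -45 and -14.

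Promoters of 300 bases (250 before and 50 after the start) were found in the RefSeq table for 23 of the 30 genes. Each motif was searched on both strands as exact letters, and none of the 3 motifs contains another. The sterol regulatory element core TCACNCCAC was in 1 of the 23, that of Hmgcs1. It was in 1.04% of the 11558 promoters of tested genes and in 1.22% of all 27025 promoters in the table. CCAAT was in 19 of the 23 (82.6%), compared with 38.5% of the 11558 promoters of tested genes, and 10 of the 23 (43.5%) held 2 or more, compared with 14.5%. Mvk, the mevalonate kinase, held 5, and Nsdhl, a sterol dehydrogenase, held 4. The GC box GGGCGG, bound by SP1, was in 19 of the 23 (82.6%) and in 59.8% of the promoters of tested genes. These are matches of letters and no binding was measured.

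Levels can be set side by side between genes only per transcript length, for which the deposited TPM (length-scaled transcript abundances with the same total in each library) were summed per gene. Over the 12 libraries Abcg1, a pump that exports cholesterol, had the highest mean of the 30 genes, 66.7 TPM (36.3 to 144). It was followed by Srebf2 with 43.6 TPM (25 to 56.7), Idi1 with 39.4 TPM (16.8 to 92.6) and Fdps, which makes farnesyl diphosphate, with 38.7 TPM (21.5 to 66.8). The ranges of these 4 genes overlapped, so their order is not fixed. Abca1, the other efflux pump, was the lowest at 0.663 TPM (0.146 to 1.97). In all, 25 of the 30 genes had a mean above 3.74 TPM, the median over the genes tested. The 5 below it were Acat2, Tm7sf2, Acaca, Hsd17b7 and Abca1. Short transcripts with few counts, such as retained introns, can hold much of a summed TPM, so it need not reflect the coding transcript. The retained intron Lss-205 held a median of 46.9% of the TPM of Lss. In Tumor-CD40 library 3 Dhcr7-213 held 34.1 of the 43.1 TPM of Dhcr7, from 19.7 counts. This limit also holds for the TPM fold changes below.

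**Figure D1:**
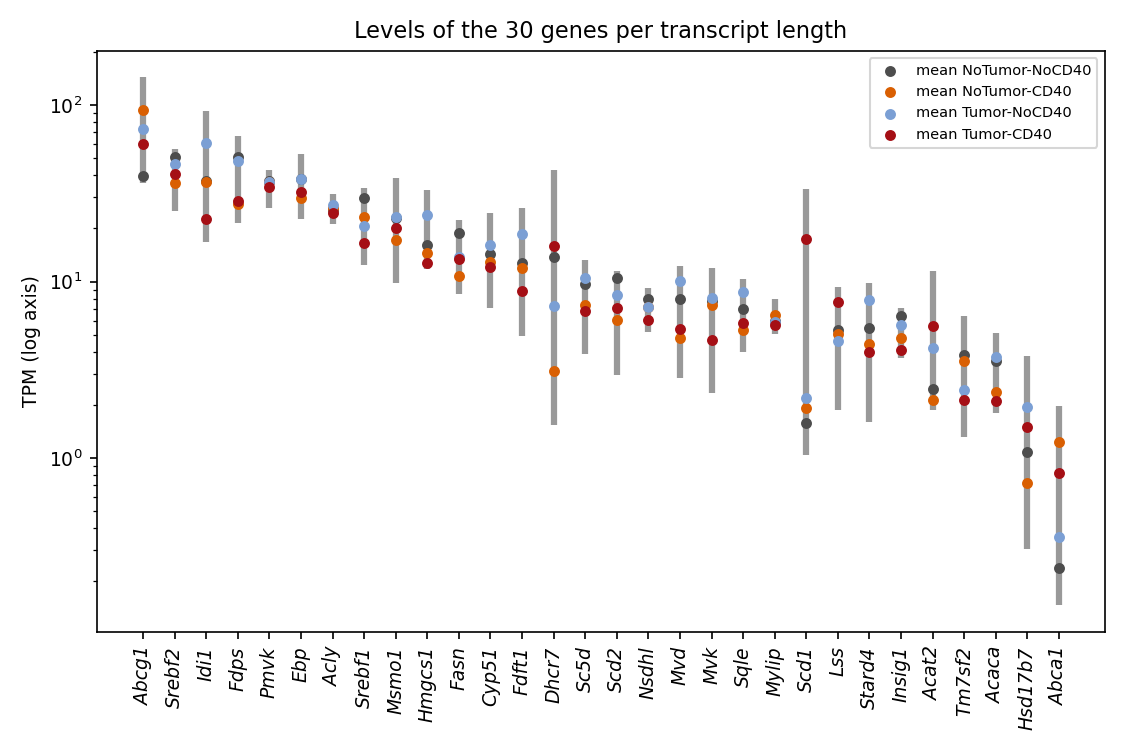
TPM of each of the 30 genes on a log axis, ordered by the mean over 12 libraries. Grey bars run from the lowest to the highest library and points are group means; Scd1 is the gene whose Tumor-CD40 mean lies farthest from its other group means, and Abcg1 and Abca1 stand at the opposite ends of the order.

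All values below are normalized CPM (library-size scaled counts, with TMM factors) unless TPM is named. A library is named by its group and number, fold changes are log2 values given ± their standard error (SE), and a gene is called where the adjusted p is under 0.05. Total expected counts ran from 22855143 to 27163393 per library. The cDC1 label was checked against 10 markers, none at 0 in any group. Xcr1, the chemokine receptor that defines cDC1, ran from 49.5 to 779.8 CPM and Clec9a, their receptor for dead cells, from 33.2 to 357 CPM. The summed cDC1 markers were 6632 to 9444 CPM in NoTumor-NoCD40, 2444 to 7485 in NoTumor-CD40, 1818 to 10843 in Tumor-NoCD40 and 3830 to 4968 in Tumor-CD40 libraries. The sum of 8 markers of mature or migratory dendritic cells ran from 3970 to 9891, 11230 to 26148, 5087 to 17604 and 9993 to 13057 CPM in the same order. Without a tumor the mature sum was higher in every agonist library; with a tumor both sums overlapped between the groups, and both varied widely between Tumor-NoCD40 libraries. Markers of plasmacytoid dendritic cells, 5 genes, summed to 156 to 222 CPM in the 6 libraries without agonist. In the 6 with it they summed to 278 to 521 CPM. Most of that difference was Spib, at 22.7 to 103 and 144 to 369 CPM. The ranges overlapped for Bst2 (48.8 to 69.2 and 62.5 to 113 CPM), Tcf4 (31.6 to 42.6 and 36.4 to 66.7) and Ccr9 (11 to 50.5 and 8.8 to 34.1). Their defining marker Siglech stayed between 0.357 and 5.62 CPM. Markers of Langerhans cells, 3 genes, were 97.9 to 127 CPM without and 12 to 83.9 CPM with agonist in mice without a tumor. With a tumor they were 30.8 to 86.3 CPM without and 7.02 to 10.3 CPM with agonist. That difference lay mostly in Cd207, at 15.5 to 122 CPM in libraries without and 3.14 to 77.3 CPM in those with agonist. Epcam stayed between 3.39 and 14.6 CPM in all libraries, and Il34 reached at most 0.654 CPM. Monocyte markers, 5 genes, summed to 442 to 585 CPM in NoTumor-NoCD40 and 102 to 295 CPM in NoTumor-CD40 libraries. Among them Ly6c2 went the other way, at 9.18 to 14.8 and 24.2 to 53.4 CPM. The sum of 8 cell cycle genes was 606 to 922 and 328 to 583 CPM in these groups. With a tumor the monocyte sums (141 to 427 and 185 to 328 CPM) and cell cycle sums (531 to 745 and 489 to 691 CPM) overlapped. The part of these cells and of the cell cycle in the results below was not tested. In bulk RNA of this kind, fewer cells of a type and less RNA per cell cannot be told apart.

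The first question was what the agonist changed in these genes, without and with a tumor. Without a tumor 26 of the 30 genes lay below 0 on the log2 scale, with a median of -0.45. Of all genes tested 52.3% lay below 0, with a median of -0.04. The 30 genes were chosen with earlier results of these data known, so such shares only describe the list and were not tested. None of the 30 was called by edgeR's quasi-likelihood test, where 1.44% of all genes were. At an unadjusted p under 0.05 there were 9 lower and 1 higher, against 18.4% of all genes in either direction. DESeq2 called 1 of the 30, Abcg1, where it called 6.84% of the genes to which it gave an adjusted p. The libraries of the groups did not overlap for 8 lower genes and 1 higher gene, and over all genes 12% were lower and 11.2% higher in this way.

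With a tumor 26 of the 30 again lay below 0, with a median of -0.42, while 51.8% of all genes did, with a median of -0.02. Here 1 gene was called, Scd1, which rose; 0.685% of all genes were called. At an unadjusted p under 0.05 there were 11 lower and 1 higher, against 9.96% of all genes in either direction. Groups did not overlap for 7 lower genes and 1 higher gene, where 5.4% of all genes were lower and 6.5% higher. Srebf2, Acaca and Mvd were below without overlap in both comparisons of the agonist. The comparisons with and without tumor share no library.

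**Figure D2:**
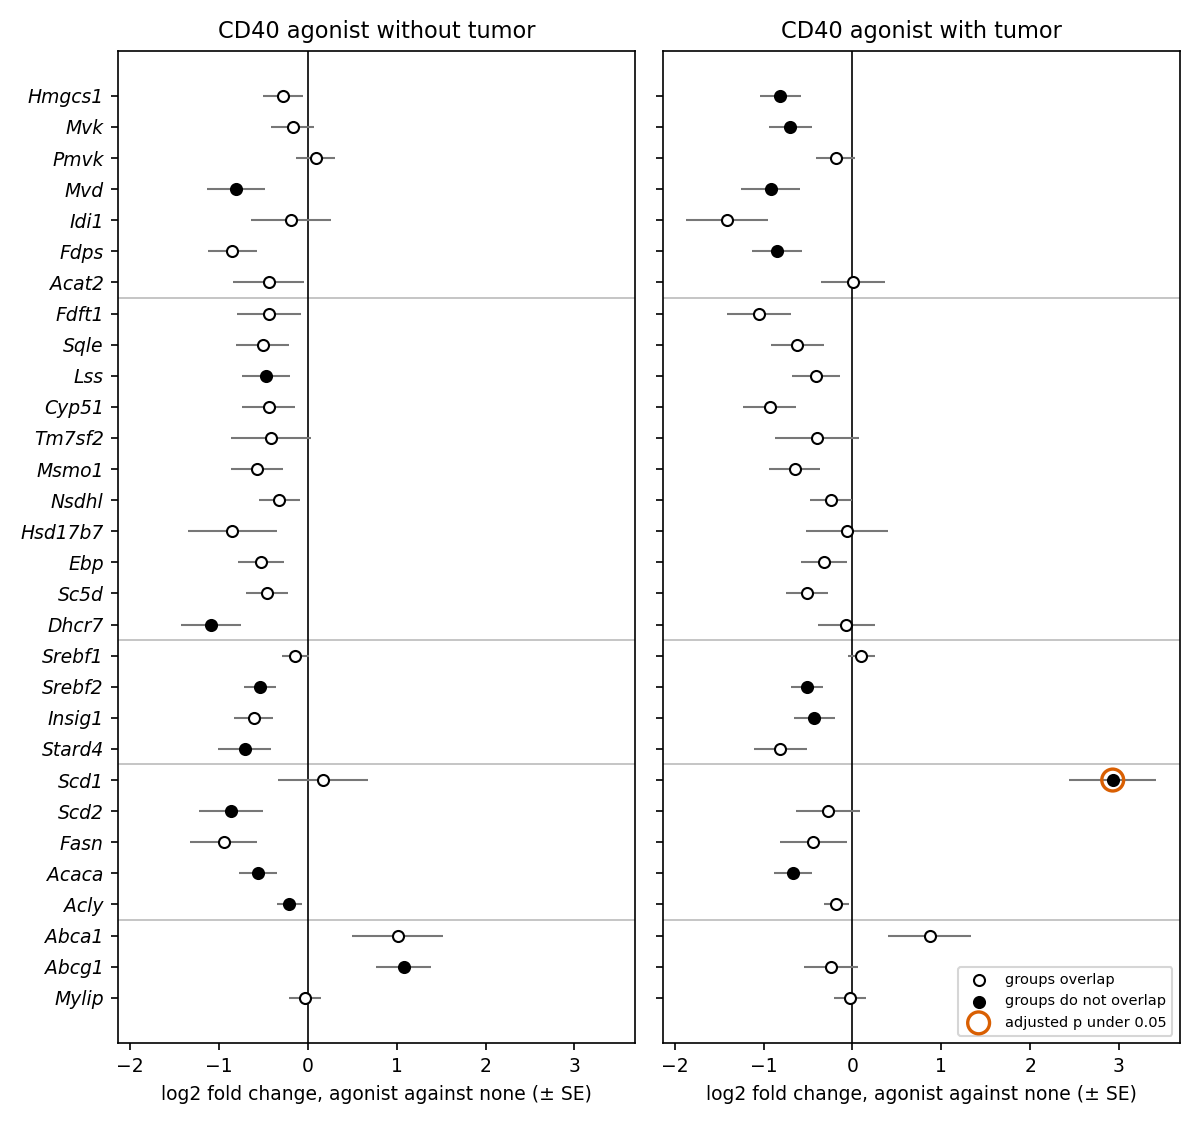
Log2 fold change with its SE for each of the 30 genes, with agonist against without, in mice without a tumor (left) and with a tumor (right), ordered by role. Filled points mark genes whose groups do not overlap and the orange ring marks Scd1, the gene past the adjusted threshold; 17 of the 18 enzymes at the top lie below 0 on each side.

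Among the 18 cholesterol synthesis enzymes, 17 lay below 0 with the agonist in each comparison, all but Pmvk (0.09) without a tumor and all but Acat2 (0.01) with one. Their median was -0.45 without and -0.56 with a tumor, and none was called. The geometric mean of the 18 enzymes was 33, 30 and 19.3 CPM in NoTumor-NoCD40 libraries 1 to 3 and 19.8, 21 and 17.5 CPM in NoTumor-CD40 libraries. It was 36, 21.6 and 32 CPM in Tumor-NoCD40 and 20.1, 17.7 and 22.7 CPM in Tumor-CD40 libraries. The agonist groups were thus close together, at 19.4 ± 1.76 and 20.2 ± 2.49 CPM (mean ± SD, n = 3), and the groups without it were more spread, at 27.4 ± 7.2 and 29.8 ± 7.47 CPM. In each group without agonist 1 library reached into the range of the agonist groups.

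Those libraries were NoTumor-NoCD40 library 3, the lowest of its group for 18 of the 18 enzymes, and Tumor-NoCD40 library 2, the lowest of its group for 15. Both also had the lowest sum of mature dendritic cell markers in their group, 3970 CPM beside 9891 and 5693, and 5087 CPM beside 14357 and 17604. NoTumor-NoCD40 library 3 also stands alone with its date-like title prefix, while every other library shares its prefix with libraries of other groups. The agonist libraries combined marker sums of 9993 to 26148 CPM with enzyme levels of 17.5 to 22.7 CPM. In NoTumor-CD40 libraries 1 to 3 the sums were 19112, 11230 and 26148 CPM, beside enzyme levels of 19.8, 21 and 17.5 CPM. There the highest sum went with the lowest enzyme level. In Tumor-CD40 libraries the sums were 13057, 10594 and 9993 CPM, beside 20.1, 17.7 and 22.7 CPM. The part of cell maturity in the enzyme levels was not tested. Without NoTumor-NoCD40 library 3 the enzyme median without a tumor was -0.64, and 9 of the 18 were lower at an unadjusted p under 0.05 in place of 3; the share of all genes lower in this way was 6.28% in place of 8.47%. Without library 1 of that group the median was -0.31 and the count 1, against 7.01% of all genes. With a tumor, leaving out Tumor-NoCD40 library 2 gave a median of -0.77 and 11 enzymes in place of 8, against 6.19% of all genes in place of 4.34%. Leaving out library 1 gave -0.40 and 5 enzymes, against 3.37%.

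**Figure D3:**
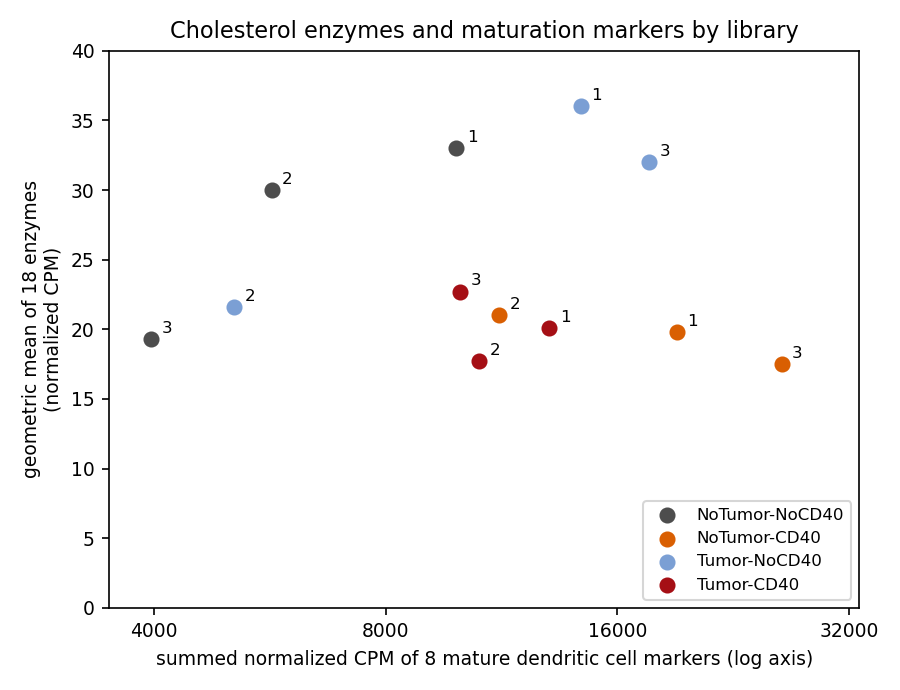
Geometric mean of the 18 cholesterol synthesis enzymes (normalized CPM) against the summed CPM of 8 mature dendritic cell markers on a log axis, 1 point per library, numbered within its group. Libraries without agonist run from 19.3 to 36 CPM on the vertical axis and those with agonist from 17.5 to 22.7.

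In the mevalonate arm 6 of the 7 genes lay below 0 in each comparison of the agonist. Hmgcs1 stood at 89, 69.8 and 57.1 CPM in NoTumor-NoCD40, 56.5, 72.1 and 48.7 in NoTumor-CD40, 105, 65.1 and 110.3 in Tumor-NoCD40, and 57.4, 47.7 and 55.3 in Tumor-CD40 libraries. The tumor-bearing groups did not overlap and the others did. Its log2 fold change with the agonist was -0.81 ± 0.23 (SE) with a tumor and -0.28 ± 0.23 without (edgeR, adjusted p = 0.174 and 0.538). Idi1 varied more, at 239, 134 and 65.1, then 149, 100.4 and 135, then 269, 85.9 and 311, then 109, 60.9 and 79.7 CPM in the same order of groups. Its fold change was -1.41 ± 0.46 with and -0.19 ± 0.45 without a tumor (edgeR, adjusted p = 0.264 and 0.859); without a tumor it turned to 0.12 on log2(TPM + 1). Tumor-NoCD40 library 2 lay inside the Tumor-CD40 range for Idi1, and without it Hmgcs1 (-1.02, adjusted p = 0.0376) and Idi1 (-1.80, adjusted p = 0.0362) were called by edgeR, in a fit that called 1.15% of all genes.

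Mvd, the decarboxylase that yields the isoprenoid unit, was 36.5, 27.4 and 23.9 CPM in NoTumor-NoCD40 and 19, 22.6 and 8.45 CPM in NoTumor-CD40 libraries. With a tumor it was 47.3, 22.5 and 38.1 CPM without agonist and 16.5, 18.7 and 21.5 CPM with it. Every agonist library thus lay below every library without agonist of the same tumor state, for fold changes of -0.81 ± 0.33 and -0.92 ± 0.33 (edgeR, adjusted p = 0.225 and 0.33). Fdps was 106, 83.3 and 49.8, then 47.1, 57 and 29, then 84.6, 63.2 and 78.6, then 36.5, 48.1 and 41.3 CPM in the order of groups above. Its fold change was -0.85 ± 0.28 in both comparisons (edgeR, adjusted p = 0.143 without and 0.269 with a tumor), with no overlap in the tumor-bearing groups. Mvk, the kinase that commits mevalonate to the pathway, was 15.9, 13.7 and 16.6 CPM in Tumor-NoCD40 and 8, 9.99 and 10.5 CPM in Tumor-CD40 libraries, without overlap (-0.70 ± 0.24, edgeR, adjusted p = 0.311). Pmvk, the kinase that follows it, stayed between 43.9 and 75.2 CPM in all libraries, and Acat2, the first thiolase, between 5.89 and 18.9 CPM.

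In the sterol arm all 11 genes lay below 0 in both comparisons of the agonist. Sqle, the squalene epoxidase, was 41.7, 34.4 and 22.5 CPM in NoTumor-NoCD40 and 25.3, 28.7 and 15.2 CPM in NoTumor-CD40 libraries. It was 50, 25.7 and 38.7 CPM in Tumor-NoCD40 and 22.8, 22.6 and 28.9 CPM in Tumor-CD40 libraries. Both pairs of groups overlapped, and its fold changes were -0.51 ± 0.30 and -0.62 ± 0.30 (edgeR, adjusted p = 0.375 and 0.516). Dhcr7, which makes cholesterol in the last step of one branch, was 12.7, 21.6 and 11.9 CPM in NoTumor-NoCD40 and 8.18, 8.83 and 4.76 CPM in NoTumor-CD40 libraries, without overlap (-1.09 ± 0.34, edgeR, adjusted p = 0.127; -1.77 on log2(TPM + 1), limma, adjusted p = 0.438). With a tumor its libraries overlapped, at 12.3, 13 and 17.1 against 11.4, 10.4 and 18.6 CPM. Lss, the cyclase that forms lanosterol, was 15, 18.8 and 14.7 CPM without and 13.4, 13.5 and 8.05 CPM with the agonist in mice without a tumor, a fold change of -0.47 ± 0.27 (edgeR, adjusted p = 0.365) that was 0.00 on log2(TPM + 1).

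With a tumor, 3 genes of the sterol arm were lower at an unadjusted p under 0.05. Fdft1, the squalene synthase, was 67.8, 27.6 and 64.4 CPM in Tumor-NoCD40 and 24.1, 25 and 28 CPM in Tumor-CD40 libraries (-1.05 ± 0.36, edgeR, adjusted p = 0.302). Cyp51, the lanosterol demethylase, was 88.2, 40.9 and 80.9 against 34.5, 30.9 and 45.1 CPM (-0.93 ± 0.30, edgeR, adjusted p = 0.256). Msmo1, a methylsterol oxidase, was 33.8, 22.4 and 35.8 against 26.4, 12.9 and 19.4 CPM (-0.65 ± 0.29, edgeR, adjusted p = 0.477). In each of the 3 the overlap came from Tumor-NoCD40 library 2, and without it Cyp51 was called by edgeR (-1.20, adjusted p = 0.0399). On log2(TPM + 1) Cyp51 was -0.32 and Msmo1 -0.06 (limma, adjusted p = 0.964 and 0.997). Summed TPM weigh short transcripts more than counts do. In NoTumor-NoCD40 library 1 the processed transcript Cyp51-202 had 10.8 TPM from 147 counts, and the coding Cyp51-201 had 9.63 TPM from 1647 counts. Tm7sf2, Nsdhl, Hsd17b7, Ebp and Sc5d, which reduce, oxidise or isomerise the later sterols, overlapped in both comparisons, with fold changes from -0.85 to -0.06.

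**Figure D4:**
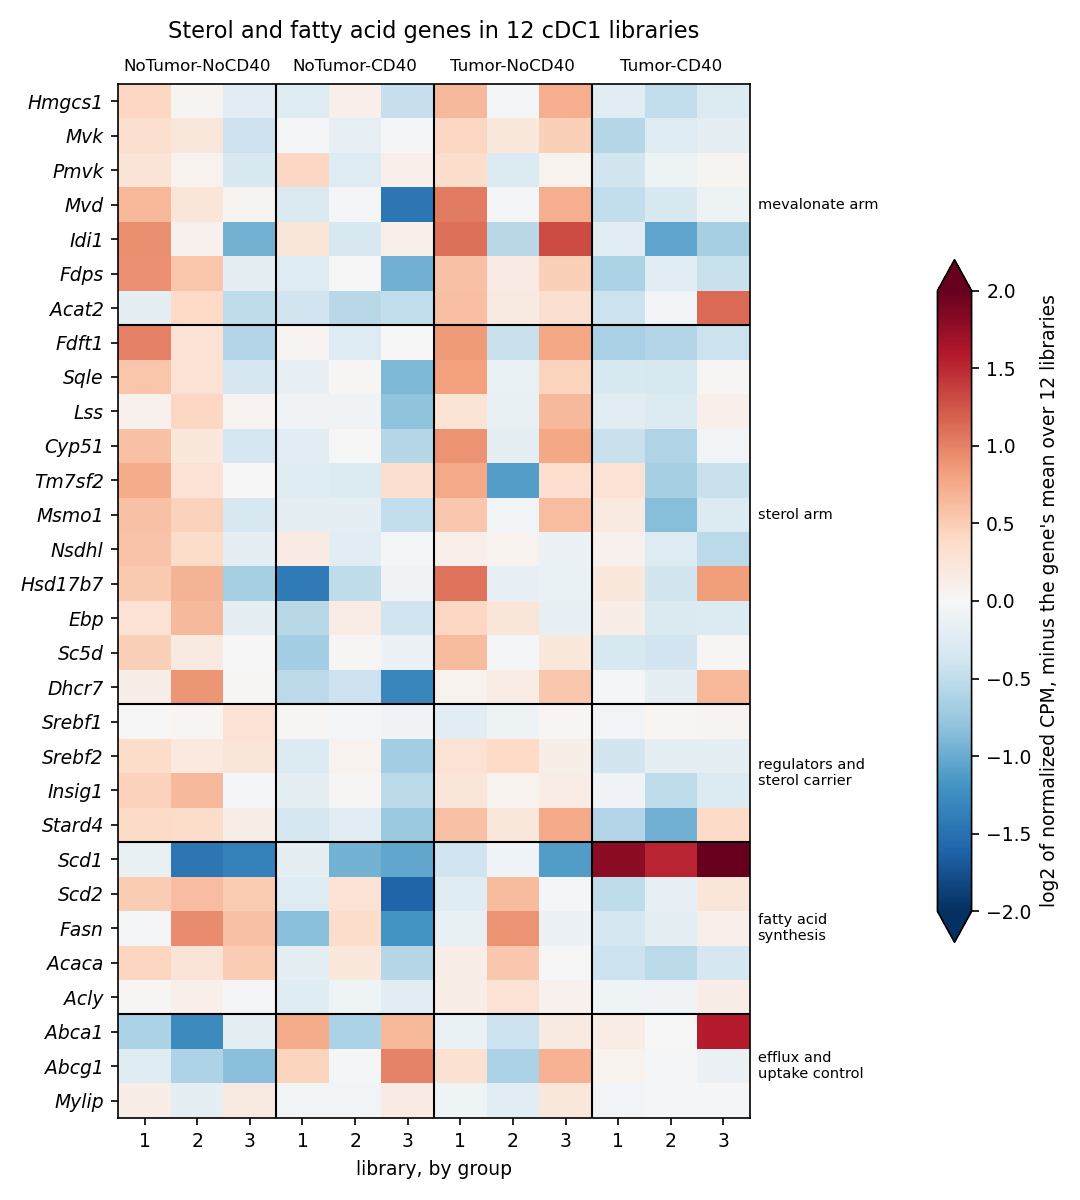
Each gene's log2 normalized CPM minus its mean over the 12 libraries, by library and role; red is above and blue below the mean, and the scale ends at 2 on either side. The enzyme rows are mostly blue in the agonist groups and also in NoTumor-NoCD40 library 3 and Tumor-NoCD40 library 2; Scd1 is red in the 3 Tumor-CD40 libraries.

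Of the regulators, Srebf2 (ENSMUSG00000022463, GRCm38 chromosome 15, 82147181 to 82205379) separated the libraries by agonist. It was 374, 333 and 343 CPM in NoTumor-NoCD40 and 239, 305 and 181 CPM in NoTumor-CD40 libraries. With a tumor it was 353, 381 and 314 CPM without agonist and 224, 256 and 255 CPM with it. In CPM the 6 libraries without agonist were all above the 6 with it, but in TPM they overlapped, at 43.7 to 56.7 without and 25 to 48.9 with agonist. Fold changes were -0.54 ± 0.18 without and -0.51 ± 0.18 with a tumor (edgeR, adjusted p = 0.155 and 0.326), so neither passed. Without NoTumor-CD40 library 2 the first was -0.73 (edgeR, adjusted p = 0.0323), in a fit that called 4.82% of all genes. It passed in 1 of 16 alternatives, this one. On log2(TPM + 1) the fold changes of Srebf2 were -0.52 and -0.19 (limma, adjusted p = 0.366 and 0.943). The group means of Srebf1 ran from 58.6 to 67.2 CPM, with fold changes of -0.14 ± 0.15 and 0.10 ± 0.15 (edgeR, adjusted p = 0.636 and 0.899). On log2(TPM + 1) those of Srebf1 were -0.35 and -0.31 (limma, adjusted p = 0.563 and 0.881), so the order of the 2 genes with a tumor depended on the unit.

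Insig1, which retains SREBP in the endoplasmic reticulum and is itself a target of SREBP, was 28.6, 32.8 and 20.6 CPM in NoTumor-NoCD40 and 18.5, 21.1 and 14.3 CPM in NoTumor-CD40 libraries (-0.61 ± 0.22, edgeR, adjusted p = 0.186). With a tumor it was 24.6, 21.9 and 23.1 against 19.9, 14.7 and 17.2 CPM, without overlap (-0.43 ± 0.23, edgeR, adjusted p = 0.568). Stard4, a soluble sterol carrier, was 26.1, 25.7 and 21.9 against 15.8, 17.3 and 11.9 CPM without a tumor (-0.71 ± 0.30, edgeR, adjusted p = 0.229). On log2(TPM + 1) Insig1 was -0.35 and Stard4 -0.25 without a tumor (limma, adjusted p = 0.594 and 0.84). With a tumor 1 agonist library, number 3 at 26.1 CPM, lay within the 23.4 to 33.9 CPM of the group without agonist, and the other two were 13.3 and 10.3 CPM (-0.81 ± 0.30, edgeR, adjusted p = 0.346).

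Srebf1 has several start sites, of which one gives the form SREBP-1a and another SREBP-1c, and 12 of its transcripts were quantified. The transcript Srebf1-201 held 13.7% ± 2.34 (SD, n = 3) of the gene's summed TPM in NoTumor-NoCD40, 19.7% ± 1.57 in NoTumor-CD40, 9.19% ± 5.85 in Tumor-NoCD40 and 30.1% ± 17 in Tumor-CD40 libraries. By expected counts the same transcript held 56.3% ± 8.28, 64.4% ± 12.1, 28.8% ± 17.5 and 65.3% ± 25.3. The units differ since the short processed transcripts weigh more per length. In Tumor-NoCD40 libraries 2 and 3 Srebf1-203 held 56.3% and 64.9% of the counts, and in Tumor-CD40 library 1 it held 51.7%. In the other libraries it held 0% to 34.8%. Which of these transcripts encodes which protein form was not determined here.

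Scd1 (ENSMUSG00000037071, GRCm38 chromosome 19, 44394455 to 44407879), the desaturase that introduces the double bond of oleate, was the gene of the 30 that edgeR called. It stood at 20.7, 8.44 and 8.94 CPM in NoTumor-NoCD40, 20, 11.9 and 11.1 in NoTumor-CD40, 17.4, 21.9 and 10.6 in Tumor-NoCD40, and 79.2, 66 and 235 in Tumor-CD40 libraries. All 3 Tumor-CD40 libraries were above all 9 others, with library 3 far above the other two. With a tumor the agonist group had 127 ± 94 against 16.6 ± 5.67 CPM (SD, n = 3), a log2 fold change of 2.93 ± 0.49 (edgeR, adjusted p = 0.0142), higher in 3 of 3 libraries. Without Tumor-CD40 library 3 it was 2.14 (edgeR, adjusted p = 0.0442), and the call was lost without Tumor-NoCD40 library 1 (adjusted p = 0.0771) or 3 (adjusted p = 0.0672), in a fit of the compared groups alone (adjusted p = 0.0732) and by limma on log2(TPM + 1) (2.31, adjusted p = 0.0886). Without a tumor the agonist gave 0.17 ± 0.51 (edgeR, adjusted p = 0.891).

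B cell RNA, like Scd1, was highest in the Tumor-CD40 libraries. The sum of 8 B cell markers was 731, 678 and 1882 CPM in Tumor-CD40 libraries 1 to 3, and 21.4 to 94.2, 72.5 to 228 and 48.9 to 135 CPM in the NoTumor-NoCD40, NoTumor-CD40 and Tumor-NoCD40 groups. Library 3 of Tumor-CD40 was the highest of the 12 in both Scd1 and the marker sum. In the other groups the highest Scd1, 21.9 CPM in Tumor-NoCD40 library 2, went with a marker sum of 48.9 CPM. The highest sum there, 228 CPM in NoTumor-CD40 library 1, went with 20 CPM of Scd1. Ms4a1, a B cell surface protein, was 150.4, 120.4 and 362 CPM in Tumor-CD40 libraries and 7.09 to 53.2 CPM in the others. None of the 8 markers was at 0 in all libraries. Macrophage markers, 7 genes, summed to 25.9 to 48.3 CPM in Tumor-CD40 and 7.19 to 22.9 CPM in the other libraries. Endothelial and stromal markers, 6 genes, summed to 40.4 to 81.7 CPM in Tumor-CD40 and 18 to 42 CPM in the others. The part of such cells in the Scd1 result was not tested.

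**Figure D5:**
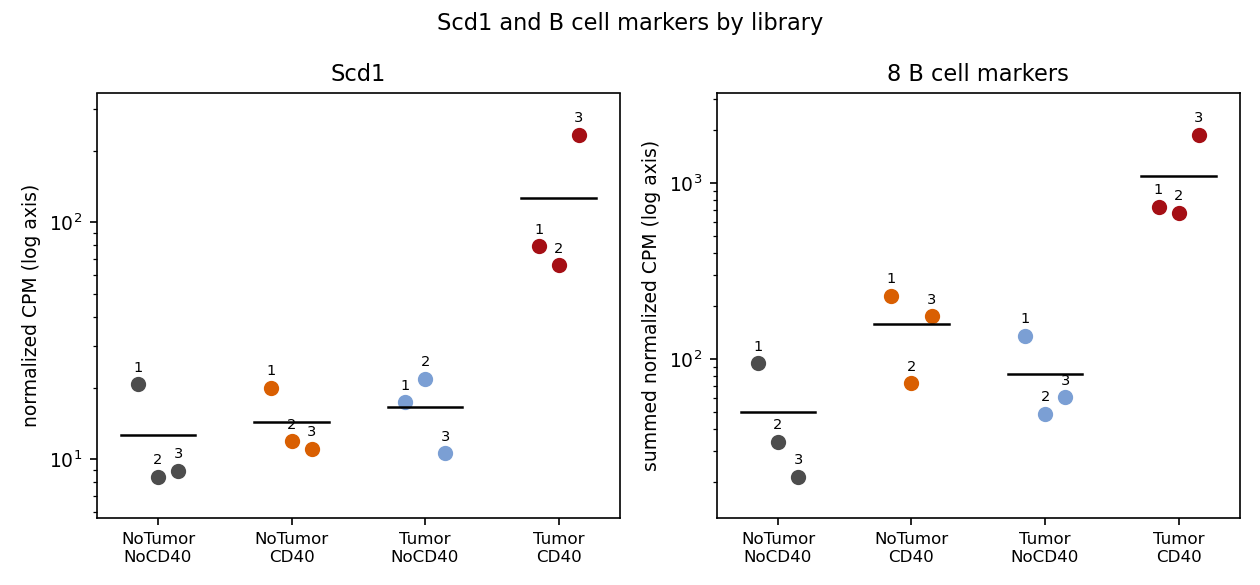
Normalized CPM of Scd1 (left) and the summed CPM of 8 B cell markers (right) by group, on log axes; points are libraries, numbered within their group, and lines are group means. The Tumor-CD40 libraries lie at 66 to 235 CPM for Scd1 and at 678 to 1882 CPM for the markers, above all 9 other libraries in both panels.

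In the comparisons of the agonist the other 4 genes of fatty acid synthesis lay below 0. Scd2, its close relative and the more abundant desaturase outside Tumor-CD40 libraries by summed TPM, was 102, 110.3 and 102 CPM in NoTumor-NoCD40 and 60.1, 87.6 and 23.6 CPM in NoTumor-CD40 libraries, without overlap (-0.87 ± 0.36, edgeR, adjusted p = 0.223). With a tumor it was 60.4, 111 and 70.3 against 50.7, 64.2 and 84.8 CPM (-0.27 ± 0.36, edgeR, adjusted p = 0.878). Scd1 and Scd2 are each quantified as 1 transcript; reads that the Scd genes share can be divided between them, and Scd3 and Scd4 reached 3.43 and 15.1 CPM at most.

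Acaca, the carboxylase of the committed step, was 48, 42.5 and 50.9 against 31.1, 41.1 and 24 CPM without a tumor and 39.1, 51.6 and 35.5 against 26.4, 24.4 and 28.3 CPM with one. Its groups did not overlap in either comparison (-0.56 ± 0.21 and -0.67 ± 0.21, edgeR, adjusted p = 0.195 and 0.25). Fasn, the fatty acid synthase, was 109, 214 and 167 against 62.6, 142 and 48.5 CPM without a tumor (-0.95 ± 0.38, edgeR, adjusted p = 0.215), with NoTumor-CD40 library 2 inside the control range; without that library it was called by edgeR (-1.55, adjusted p = 0.0253), in a fit that called 4.82% of all genes. Acly, which makes cytosolic acetyl-CoA, was 172, 182 and 165 against 143, 159.5 and 146 CPM, a small step without overlap (-0.21 ± 0.14, edgeR, adjusted p = 0.437) that was 0.02 on log2(TPM + 1).

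The 2 efflux pumps lay above 0 with the agonist in mice without a tumor, opposite to most synthesis genes. Abcg1 was 346, 267 and 229 CPM in NoTumor-NoCD40 and 557, 403 and 815 CPM in NoTumor-CD40 libraries, and 504, 264 and 665 CPM in Tumor-NoCD40 and 429, 403 and 379.8 CPM in Tumor-CD40 libraries. The groups without a tumor did not overlap (280.4 ± 59.7 to 592 ± 208 CPM, 1.08 ± 0.31, edgeR, adjusted p = 0.102). This passed the threshold with DESeq2 (1.12, adjusted p = 0.0129), with edgeR and no filter on low counts (1.10, adjusted p = 0.0466) and with edgeR without NoTumor-CD40 library 2 (1.31, adjusted p = 0.0323). The last fit called 4.82% of all genes. In each group the libraries stood in the same order for Abcg1 and for the sum of mature dendritic cell markers. Abcg1 ran from 229 CPM at a sum of 3970 (NoTumor-NoCD40 library 3) to 815 CPM at 26148 (NoTumor-CD40 library 3). The part of cell maturity in the Abcg1 fold changes, here and below, was not tested. Abca1 was low, at 3.94, 2.53 and 5.41 against 10.3, 3.93 and 9.71 CPM without a tumor and 5.58, 4.55 and 6.9 against 6.79, 6.07 and 18.2 CPM with one. Both pairs overlapped (1.01 ± 0.51 and 0.87 ± 0.47, edgeR, adjusted p = 0.302 and 0.573), and the second was 0.41 on log2(TPM + 1). Mylip, which marks lipoprotein receptors for degradation, stayed between 24.7 and 33.3 CPM in all 12 libraries.

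The tumor comparisons asked what the tumor changed in these genes, without and with the agonist; each shares its libraries with a comparison of the agonist. Without agonist none of the 30 was called by edgeR, nor was any of the 18095 genes (0%); DESeq2 called 24 genes (0.133%), 0 of them among the 30. At an unadjusted p under 0.05 there was 1 gene, Abcg1, higher, where 5.82% of all genes were in either direction. No gene of the 30 was without overlap, where 4.06% of all genes were higher and 4.92% lower. The median over the 30 was 0.09, with 18 above 0. Abcg1 was 478 ± 202 against 280.4 ± 59.7 CPM (0.77 ± 0.31, edgeR, adjusted p = 0.775), with Tumor-NoCD40 library 2, at 264 CPM, inside the range of the mice without a tumor. Among the genes followed in every comparison the fold changes were 0.38 ± 0.23 for Hmgcs1, 0.60 ± 0.45 for Idi1, 0.21 ± 0.29 for Sqle, -0.20 ± 0.15 for Srebf1, -0.00 ± 0.18 for Srebf2, -0.38 ± 0.35 for Scd2 and 0.53 ± 0.52 for Abca1, with edgeR's adjusted p between 0.775 and 0.997. The median of the 18 enzymes was 0.10, and it was -0.07 without NoTumor-NoCD40 library 3 and 0.28 without Tumor-NoCD40 library 2.

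With agonist, 1 of the 30 was called between tumor-bearing and tumor-free mice, again Scd1, where 0.199% of all genes were. It was 127 ± 94 against 14.3 ± 4.95 CPM, a log2 fold change of 3.15 ± 0.50 (edgeR, adjusted p = 0.042), higher in 3 of 3 libraries. The call was lost without any one of the NoTumor-CD40 libraries (adjusted p = 0.0912, 0.217 and 0.189) or without Tumor-CD40 library 3 (2.35, adjusted p = 0.0736), and with limma-voom (2.96, adjusted p = 0.112); the B cell marker sums given above separate the same groups. At an unadjusted p under 0.05 there were 3 higher genes and none lower, against 9.32% of all genes in either direction. Groups did not overlap for 3 higher and 2 lower genes, where 6.68% of all genes were higher and 6.19% lower.

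Those genes were Dhcr7 and Acly, higher beside Scd1, and Mvk and Fdft1, lower. Dhcr7 was 11.4, 10.4 and 18.6 CPM in Tumor-CD40 and 8.18, 8.83 and 4.76 CPM in NoTumor-CD40 libraries (0.90 ± 0.34, edgeR, adjusted p = 0.454). Acly was 160.1, 161 and 186 against 143, 159.5 and 146 CPM, apart by less than 1 CPM at the nearest libraries (0.18 ± 0.14, edgeR, adjusted p = 0.711; -0.08 on log2(TPM + 1)). Mvk, at 8, 9.99 and 10.5 against 11.6, 10.6 and 11.6 CPM, differed by less than its SE (-0.24 ± 0.25, edgeR, adjusted p = 0.788). Fdft1 was 24.1, 25 and 28 against 39.2, 31.5 and 37.5 CPM (-0.49 ± 0.37, edgeR, adjusted p = 0.697). Acat2 was 6.4, 8.38 and 18.9 against 6.62, 5.89 and 6.15 CPM, a difference carried by library 3 (0.86 ± 0.39, edgeR, adjusted p = 0.526). Of the genes followed throughout, Hmgcs1 (-0.14 ± 0.23), Idi1 (-0.62 ± 0.46), Sqle (0.10 ± 0.30), Srebf1 (0.05 ± 0.15), Srebf2 (0.02 ± 0.18), Scd2 (0.22 ± 0.36) and Abca1 (0.39 ± 0.45) had edgeR adjusted p values between 0.691 and 0.983. Srebf1 and Abca1 turned negative on log2(TPM + 1), at -0.46 and -0.28.

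The interaction asks whether the agonist's fold change differed between tumor-bearing and tumor-free mice. None of the 30 was called by edgeR, nor was any other gene (0%), and DESeq2 called 16 genes (0.0925%), 1 of them among the 30. At edgeR's unadjusted p under 0.05, 2 were higher and 1 lower, against 9.8% of all genes in either direction. Scd1 had a difference of 2.76 ± 0.70 (edgeR, adjusted p = 0.495), which DESeq2 called (2.75, adjusted p = 0.0399). Abcg1 had -1.32 ± 0.43 and Dhcr7 1.02 ± 0.46 (edgeR, adjusted p = 0.495 and 0.502). For Idi1 the difference was -1.22 ± 0.64 and for Hmgcs1 -0.52 ± 0.33 (edgeR, adjusted p = 0.554 and 0.612). It was 0.60 ± 0.50 for Scd2, 0.24 ± 0.21 for Srebf1, -0.14 ± 0.69 for Abca1, -0.11 ± 0.42 for Sqle and 0.02 ± 0.26 for Srebf2, with edgeR's adjusted p between 0.706 and 0.981. The larger enzyme median with a tumor is therefore not shown to differ from that without one.

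A list of 35 other genes of sterol and fatty acid handling was counted beside the 30, and 33 of them passed the filter. None was called by edgeR in any of the 5 contrasts, and at an unadjusted p under 0.05 there were 3 higher and 1 lower with the agonist alone and 0 higher and 3 lower with the agonist in tumor-bearing mice, beside the 18.4% and 9.96% of all genes given above. Their median was -0.17 and -0.06 in these comparisons. DESeq2 called 3 of them with the agonist alone, Lbr, Npc2 and Nr1h2 (adjusted p = 0.00986, 0.0207 and 0.0289), and Lbr for tumor with agonist (adjusted p = 0.0235), where it called 6.84% and 0.97% of all genes given an adjusted p. Lbr, a nuclear envelope protein that is also a sterol reductase, was 64.9, 83.1 and 63.7 CPM in NoTumor-NoCD40 and 35.7, 46.6 and 20.2 CPM in NoTumor-CD40 libraries, without overlap (-1.05 ± 0.26, edgeR, adjusted p = 0.064). It was 74.5, 59.3 and 78.6 CPM in Tumor-CD40 libraries, above those of NoTumor-CD40 (1.05 ± 0.26, edgeR, adjusted p = 0.168), with an interaction of 1.39 ± 0.36 (edgeR, adjusted p = 0.495). Npc2, which carries cholesterol out of lysosomes, was 1275, 1091 and 808 against 1819, 1361 and 2249 CPM without a tumor (0.77 ± 0.23, edgeR, adjusted p = 0.12). Nr1h2, an LXR receptor, was 91.4, 81.1 and 96.9 against 122, 113 and 135 CPM (0.46 ± 0.14, edgeR, adjusted p = 0.127).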

How the data were processed

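RNA-seq values of 12 cDC1 libraries were used. A Qiagen RNeasy micro kit gave total RNA and a directional NEBNext kit the libraries, per the labels' protocols. Per the submitters' processing notes, Salmon and the mm10 build were used; versions and the annotation release were not given in the sources used here. The authors deposited expected counts (estimated reads per transcript, not normalized) and TPM per transcript for 136288 transcripts. With GENCODE M21, 136176 were assigned to 53458 genes; the other 112 (0.0279% to 0.0457% of a library's counts) were dropped. Gene values are sums over transcripts, with expected counts rounded. 20167 to 22523 genes had a count in a library.

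Tests were run with edgeR 4.0.16 (R 4.3.3): TMM factors of 0.936 to 1.074, filterByExpr (minimum count 10, minimum total 15), 1 mean per group over 12 libraries, 8 residual degrees of freedom, two-sided quasi-likelihood F tests (legacy = FALSE) and Benjamini-Hochberg adjustment over 18095 genes. The SE is |log2 fold change| divided by the root of F. No list was tested or adjusted alone. The test was tried on simulated data.

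The 30 genes and all lists were chosen with earlier results of these data known. Fold changes are given where the unadjusted p was under 0.05 or groups did not overlap, and for Hmgcs1, Idi1, Sqle, Srebf1, Srebf2, Scd2 and Abca1 throughout; genes of the list of 35 are named at an unadjusted p under 0.01. Libraries are numbered in accession order. Alternatives used DESeq2 1.42.0, limma 3.58.1 (voom on counts, trend on log2 of TPM plus 1 or 0.1), other filters and normalization, fewer libraries and a block on the date-like prefix of the titles. The Srebf1 transcripts, levels and promoter motifs had no test.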

Additional observations from a re-analysis of the deposited data

How the results depend on the processing

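The direction of Scd1 held in all alternatives tried, from 2.14 to 3.24 for the agonist with tumor (past the threshold in 10 of 16) and from 2.35 to 3.47 for tumor with agonist (6 of 16). The number of the 30 genes called without a tumor was 1 with no filter on low counts and with DESeq2, in place of 0, and 0 to 3 when a library was left out. With a tumor it was 0 with limma-trend on log2(TPM + 1), on log2(TPM + 0.1) and without a filter, and with only the groups compared, in place of 1, and 0 to 4 when a library was left out. For tumor with agonist it was 0 with limma-voom, with legacy = TRUE, with the 3 limma-trend settings and with only the groups compared, in place of 1, and 0 to 1 when a library was left out. DESeq2 called 1 in the interaction. The causes were not tested.

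The title prefix was used as a replicate block: it gave 2 calls with a tumor (Scd1, and Idi1 at -1.31, edgeR adjusted p = 0.0223) and changed no other count of calls. Without a tumor, 10 enzymes were then lower at an unadjusted p under 0.05, in place of 3; that block in effect omits NoTumor-NoCD40 library 3, which alone has its prefix. Deviations of libraries with the same prefix correlated at 0.004 to 0.228 over 15 pairs, with a median of 0.063 and 3 of them over 0.1. Those with different prefixes correlated at -0.19 to 0.088 over 39, with a median of -0.029. Libraries with the same prefix thus deviated together, though weakly. The labels do not say what the prefix marks, and the main fit had no term for it. Whether these libraries share a batch was not tested.

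Signs turned mostly for values near 0. On TPM (pseudocount 1, 0.1, and 1 without filter) Idi1 without tumor gave 0.12, 0.13 and 0.12, Lss 0.00, 0.03 and 0.00, Acly 0.02, 0.02 and 0.02; Srebf1 with tumor gave -0.31, -0.32 and -0.31; for tumor with agonist Srebf1 gave -0.46, -0.48 and -0.46, Acly -0.08, -0.08 and -0.08, and Abca1 -0.28, -0.53 and -0.28. Srebf2 for tumor without agonist gave 0.02 with RLE, no filter and DESeq2, and 0.05 with the block; in the interaction the block gave 0.09 for Sqle and -0.00 for Srebf2. With a library left out, ranges that crossed 0 were -0.54 to 0.36 for Idi1 with the agonist without tumor and -0.47 to 0.03 for Scd2 with the agonist in tumor-bearing mice. For tumor without agonist they were -0.00 to 0.43 for Sqle and -0.07 to 0.07 for Srebf2. For tumor with agonist they were -0.24 to 0.03 for Hmgcs1, -0.10 to 0.30 for Sqle, -0.13 to 0.23 for Srebf2, -0.12 to 0.69 for Scd2 and -0.30 to 0.66 for Abca1, and in the interaction -0.33 to 0.12 for Sqle, -0.14 to 0.22 for Srebf2 and -0.84 to 0.13 for Abca1. The share of Srebf1-201 differed by the unit, as given above. Enzymes below 0 without a tumor numbered 15 to 16 on TPM and 15 to 18 without a library, with a median of -0.17 to -0.15 on TPM; with a tumor the TPM median was -0.30 to -0.27. The 3 TPM settings found 3 or 4 of the 30 lower without a tumor at an unadjusted p under 0.05 in place of 9, and 5 or 6 with a tumor in place of 11. Without NoTumor-CD40 library 3 the count of 9 was 2, and without library 1, or NoTumor-NoCD40 library 2, it was 5. Groups of 3 libraries limit the precision.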
